A study of Mus musculus with 6 samples.

Results

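The Serpin family was taken as every row of the expression tables whose symbol is Serpin followed by a clade letter from a to i, a number and at most 1 further letter. Serping1 was left out. The rule gave 62 rows of 55076, of which 25 were in clade A, 27 in clade B, 3 in clade E, 2 in clade F, 2 in clade I and 1 each in clades C, D and H. RNA-seq libraries had been made from the whole anterior prostate (AP) of male mice aged 20 weeks, 3 OEx and 3 Ctrl, each mouse giving 1 library. OEx mice carried Pbsn-Cre and a Rosa26 N1ICD allele, so that the Notch1 intracellular domain (N1ICD) was expressed where the probasin promoter is active, in prostatic epithelium. Ctrl mice carried the Rosa26 N1ICD allele without Cre, and their genotype is given as wild type in the sample labels. Whole tissue was used, so fewer cells of a type and less RNA per cell cannot be told apart in the values below.

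Serpins are inhibitors that present a loop as bait to a protease and trap the enzyme in a covalent complex when the loop is cut. Most act on serine proteases, some on cysteine proteases, and a few have lost inhibition and serve as chaperones or hormone carriers. Clade A holds the secreted relatives of antitrypsin, many of them made by the liver, and clade B the intracellular serpins. Clade E holds the inhibitors of plasminogen activators and thrombin, and clade H the collagen chaperone Hsp47. In the reproductive tract serpins are known from seminal fluid and from basal epithelium. In mice, the genes of clades A and B have multiplied into large arrays of close copies.

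The values were FPKM (fragments per kilobase of gene and per unit of a library total), and recovered depth ran from 14762190 to 18650970 reads per mouse. The totals behind the FPKM were not the reads themselves: divided by a mouse's own recovered reads, they came to between 1.22 and 1.35 for OEx and between 0.726 and 0.815 for Ctrl, which sets OEx values lower against Ctrl values than library totals would. Notch1 read 41.9, 47.6 and 78.9 FPKM in OEx against 5.18, 5.55 and 3.34 FPKM in Ctrl mice, so that it was higher in every OEx mouse, and these values do not separate transgene from endogenous transcripts. Replicate 3 of each group stood apart from the other two mice of its group. Fibroblast markers (5 genes) summed to 166, 168 and 21.5 FPKM in OEx mice and to 46.2, 45.2 and 80.0 FPKM in Ctrl mice, and leukocyte markers (6 genes) to 20.5, 19.7 and 4.52 FPKM in OEx mice and to 4.42, 4.87 and 10.3 FPKM in Ctrl mice. OEx replicate 3 was thus the lowest of the 6 mice for fibroblast markers. In Ctrl replicate 3, 8 seminal vesicle genes summed to 16128 FPKM, against at most 4.36 FPKM in any other mouse, and 4 smooth muscle genes were at 1632 FPKM against at most 802 FPKM. The 4 basal epithelial markers summed to 6.79 to 15.9 FPKM in OEx mice and to 212 to 249 FPKM in Ctrl mice. A list of 3 club cell markers summed to 466, 429 and 221 FPKM in OEx mice and to at most 1.52 FPKM in Ctrl mice, nearly all of it from Scgb1a1, a secretoglobin, while Scgb3a1 and Scgb3a2 were at most 0.252 FPKM in any mouse. The part of these markers in the serpin values was not tested. Among the 6 luminal markers, Pbsn, the gene whose promoter drives the Cre, was at 1795 to 4497 FPKM in OEx mice and at 14220 to 18407 FPKM in Ctrl mice. None of the luminal markers was at 0 in any mouse. Between replicates 1 and 2, the chi-square of the reads per gene was 3.67 in OEx mice and 2.93 in Ctrl mice, where counting noise gives 1. Pairs with replicate 3 were at 50.4 and 52.5 in OEx mice and at 84.8 and 86.7 in Ctrl mice. A value above 1 cannot show that 2 libraries came from different mice. Replicates 1 and 2 were kept separate because the labels list them so.

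Only part of the family was detected in this tissue. Of the 62 rows, 25 had 0 reads in all 6 mice and 26 had reads in at least 1 mouse but a mean under 1 FPKM, which left 11 rows for the comparison of OEx with Ctrl mice. The rows at 0 reads included the antitrypsin genes Serpina1a, Serpina1c, Serpina1d and Serpina1e, the hormone carriers Serpina6 and Serpina7, the Serpinb3 array of 4 genes and Serpinb9c to Serpinb9g. Alb, which encodes albumin and defines hepatocytes, was at 0 in all mice. The 4 hepatocyte markers, Alb among them, summed to 0.766, 1.19 and 1.04 FPKM in OEx mice. In Ctrl mice the sums were 0.0647, 0.190 and 0.2995 FPKM, below every OEx mouse. Ttr was at 0.617, 1.11 and 0.954 FPKM in OEx mice and at 0, 0.190 and 0 FPKM in Ctrl mice. In clade B, 15 of 27 rows were at 0 reads, and in clade A 10 of 25. Clade A lay in an array of 24 genes on chromosome 12 (103614786 to 104414329), of which 15 had reads, and Serpina7 on chromosome X. Clade B lay in arrays of 15 genes on chromosome 13 (32842092 to 34002794) and 12 genes on chromosome 1 (106861173 to 107610484), of which 7 and 5 had reads. Near-identical copies can share reads, and 78.7% of the 50-base stretches of Serpinb9f transcripts and 74.2% of those of Serpina1c also occur in another gene, so 0 reads in these rows can depend on how shared reads were counted. A count of 0 in a mouse allows up to 3 reads there, that is 0.161 to 0.203 CPM, by counting error alone.

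The serpin mRNA pool differed in size and make-up between mice. Summed over the 62 rows, it stood at 287, 274 and 119.95 FPKM in OEx mice and at 126, 124 and 184 FPKM in Ctrl mice, and the groups overlapped. Serpina3n made up 37.3%, 36.9% and 3.47% of the pool in OEx mice and 2.30%, 2.48% and 3.96% in Ctrl mice. Serpinb1a made up 3.77%, 3.64% and 14.5% in OEx mice and 25.7%, 26.6% and 16.2% in Ctrl mice. OEx replicates 1 and 2 were thus led by Serpina3n, OEx replicate 3 by Serpine2 with 37.8%, Ctrl replicates 1 and 2 by Serpinb1a and Ctrl replicate 3 by Serpinh1 with 28.8%. The plot of the make-up of the pool shows these shares as heights.

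**Figure D1:**
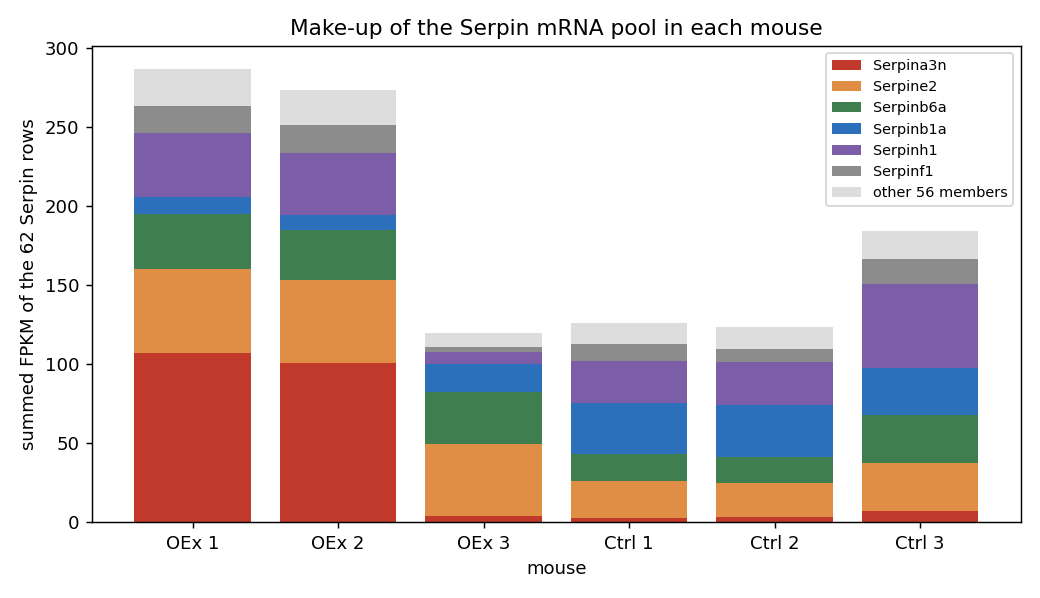
Stacked bars give the summed FPKM of the 62 Serpin rows in each of the 6 mice, with the 6 most abundant members coloured and the other 56 in light grey. Serpina3n is at 107 and 101 FPKM in OEx replicates 1 and 2, but no more than 7.30 FPKM elsewhere.

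The comparison of the groups used limma on the 12833 rows that averaged 1 FPKM or more over the 6 mice, and a call required more than a 2-fold change together with a Benjamini-Hochberg FDR under 0.05. Of the 11 tested serpins, 1 was called higher (Serpina3g) and 2 were called lower (Serpinb1a and Serpinb8) in OEx mice, and 8 were not called. Among all tested genes, 28.6% passed both criteria, 12.9% in the higher and 15.7% in the lower direction. Without the fold criterion, 3 serpins were higher and 3 were lower at an FDR under 0.05, against 30.7% and 36.5% of all tested genes, or 67.2% together. The groups were apart for 5 serpins, with OEx mice on top for 2 and at the bottom for 3, and overlapped for 6. Over all tested genes, groups did not overlap for 72.4%, which were 33.4% in the higher and 38.9% in the lower direction. The median log2 fold change of the 11 serpins was 0.45, with 6 above 0 and 5 below, and that of all tested genes was -0.078. The number of calls hung on OEx replicate 3: without that mouse, 4 serpins were called higher and 2 lower, against 13.4% and 15.8% of all tested genes. It also hung on the scaling between mice: with library totals, which moved the median log2 fold change of all tested genes to 0.56, 5 serpins were called higher and 0 lower by limma, against 30.6% and 4.59% of all tested genes.

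**Figure D2:**
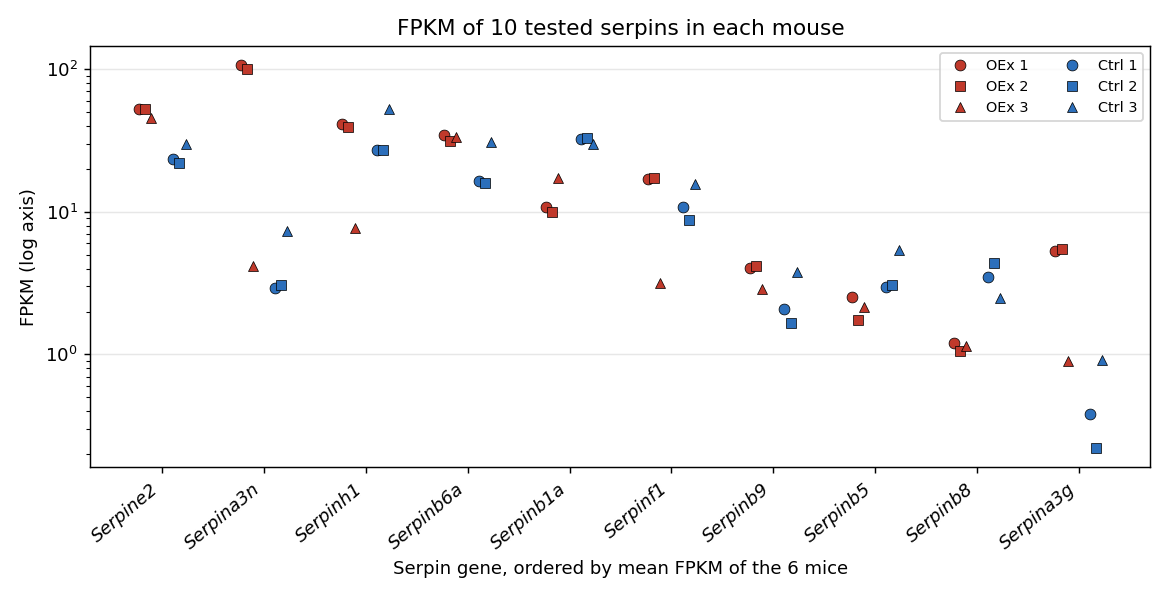
Each point is the FPKM of 1 of 10 tested serpins in 1 mouse on a log axis, with OEx mice in red, Ctrl mice in blue and the replicate number given by the shape. For Serpina3n, Serpinh1, Serpinf1 and Serpina3g the OEx triangle (replicate 3) lies far below the other OEx points. The groups are apart for Serpine2, Serpinb1a, Serpinb8 and Serpinb5, and narrowly for Serpinb6a.

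Promoters from RefSeq (GRCm38.p6, 250 bases before to 50 after a start site) were matched for 53 of the 62 serpins. The letters TGGGAA, the core that RBPJ, the DNA-binding partner of N1ICD, is known to bind, were searched on both strands. They stood in promoters of 16 of the 53 serpins and in 25.6% of all 32851 promoters, and in 17 of 62 serpin promoters. The letters AGAACA, one arm of the androgen receptor element, were in 25 of 62 serpin promoters, many of them of close Serpina1 and Serpina3 copies, and in 19.0% of all promoters. The STAT palindrome TTCNNNGAA was in 11 of 62 serpin promoters, from 8 serpins, and in 8.30% of all promoters. For Serpina3f, Serpina11 and Serpinb2, overlapping promoter windows held the same match. The promoters of 4 serpins are shown with TGGGAA, or its reverse complement, in capitals, to set the 2 Serpina3 neighbours beside a serpin that was called lower and to Serpine2.
Serpina3n, chr12:104406458-104406757, + strand: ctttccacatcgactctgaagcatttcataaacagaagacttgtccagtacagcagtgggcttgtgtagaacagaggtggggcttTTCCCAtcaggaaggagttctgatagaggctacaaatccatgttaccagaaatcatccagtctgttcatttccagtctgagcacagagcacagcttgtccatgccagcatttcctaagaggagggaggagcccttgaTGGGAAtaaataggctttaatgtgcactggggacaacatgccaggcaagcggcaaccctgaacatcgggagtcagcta
Serpina3g, chr12:104235897-104236196, + strand: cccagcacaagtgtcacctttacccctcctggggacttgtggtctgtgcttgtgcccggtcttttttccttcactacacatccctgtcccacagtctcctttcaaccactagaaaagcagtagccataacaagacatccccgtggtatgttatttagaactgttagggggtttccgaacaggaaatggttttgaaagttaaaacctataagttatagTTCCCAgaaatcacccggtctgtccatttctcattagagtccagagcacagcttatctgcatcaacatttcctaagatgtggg
Serpinb8, chr1:107589756-107590055, + strand: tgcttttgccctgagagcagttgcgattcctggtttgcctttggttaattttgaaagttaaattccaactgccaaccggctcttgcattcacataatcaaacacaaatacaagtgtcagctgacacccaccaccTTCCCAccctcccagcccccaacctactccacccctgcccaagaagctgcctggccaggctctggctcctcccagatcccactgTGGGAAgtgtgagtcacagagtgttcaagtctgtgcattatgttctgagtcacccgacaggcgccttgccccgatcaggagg
Serpine2, chr1:79858616-79858915, - strand: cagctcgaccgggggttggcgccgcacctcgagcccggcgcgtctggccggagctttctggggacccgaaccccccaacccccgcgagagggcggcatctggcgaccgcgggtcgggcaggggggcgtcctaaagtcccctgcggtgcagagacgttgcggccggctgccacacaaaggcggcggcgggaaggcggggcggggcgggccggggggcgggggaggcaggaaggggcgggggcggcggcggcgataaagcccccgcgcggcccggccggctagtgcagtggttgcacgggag
The core was present 2 times for Serpina3n, with first bases at -165 and -28 from the start site, 2 times for Serpinb8, at -116 and -32, and once for Serpina3g, at -33, where it overlaps a match to the STAT palindrome. The Serpine2 window held none. The core thus stood both in a promoter of a gene called higher and in that of a gene called lower, and a match is a description of letters and not a site of binding.

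Serpina3n, the mouse relative of antichymotrypsin, is a secreted acute-phase inhibitor of leukocyte proteases such as granzyme B, cathepsin G and elastase. Its gene lies on chromosome 12 from 104406729 to 104414329 (GRCm38). It was at 107, 101 and 4.16 FPKM in OEx mice and at 2.90, 3.07 and 7.30 FPKM in Ctrl mice. OEx replicates 1 and 2 were far above every Ctrl mouse, whereas OEx replicate 3 fell within the Ctrl range. OEx minus Ctrl was 2.92 ± 1.17 on the log2 scale (SE, limma FDR 0.0626), and Serpina3n was not called. Without OEx replicate 3 it was 4.37 (limma FDR 2.92e-04), and without any other single mouse it was not called. With library totals it was 3.58 (limma FDR 0.0391) and called. In OEx replicates 1 and 2 the mean was 25.0 times that of OEx replicate 3, where the fibroblast and leukocyte marker sums were also low. Whether these cells carried the signal was not tested.

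Serpina3g, an intracellular relative known from activated lymphocytes and macrophages that inhibits cysteine cathepsins, lies on chromosome 12 from 104236245 to 104241939. It was at 5.36, 5.46 and 0.895 FPKM in OEx mice and at 0.380, 0.220 and 0.907 FPKM in Ctrl mice. As with Serpina3n, OEx replicate 3 was near Ctrl replicate 3 and the groups overlapped. OEx minus Ctrl was 1.53 ± 0.493 on the log2 scale (SE, limma FDR 0.0296), the single higher call among the serpins. The difference ranged from 1.23 to 2.12 and kept the call in 2 of 6 fits that left out a mouse, those without OEx replicate 3 and without Ctrl replicate 3. The call was also lost without a filter on low values (limma FDR 0.0626), with limma-voom on recovered reads (FDR 0.0697) and with the replicate block (limma FDR 0.0703).

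The other Serpina3 rows lie beside these 2 genes and had far fewer reads, most of them in OEx replicates 1 and 2. Recovered reads over all 11 Serpina3 rows were 4776, 5152 and 201 in OEx mice and 96, 97 and 269 in Ctrl mice. Serpina3n took 92.3%, 92.4% and 77.1% of them in OEx mice and 78.1%, 84.5% and 85.1% in Ctrl mice. Without Serpina3n, 367, 390 and 46 reads remained in OEx mice and 21, 15 and 40 in Ctrl mice, so that OEx replicate 3 was 6 reads above Ctrl replicate 3. Serpina3h had 44, 39 and 5 reads in OEx mice and 4, 1 and 3 in Ctrl mice, and Serpina3m had 29, 34 and 2 reads against 0, 1 and 0. Serpina3i had 30, 27 and 0 reads in OEx mice and 3, 0 and 3 in Ctrl mice. Serpina3f, at 19, 12 and 5 reads in OEx mice and 2 reads in each Ctrl mouse, was above Ctrl in all OEx mice (exact permutation p = 0.1, two-sided, the smallest that 3 against 3 mice allow). Serpina3c had 8, 9 and 0 reads in OEx mice and 2, 5 and 3 in Ctrl mice. Serpina3k, with 7, 4 and 0 reads in OEx mice, and Serpina3j, with 5, 2 and 0, had 0 reads in every Ctrl mouse. Serpina3a and Serpina3b had 0 reads in all mice. Between 10.6% and 21.9% of the 50-base stretches of Serpina3f, Serpina3g, Serpina3h, Serpina3i, Serpina3k and Serpina3m also occur in another gene, against 6.90% for Serpina3n. Exons of Serpina3k and Serpina3m overlap on the same strand, and how the reads divided among these copies is therefore uncertain.

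**Figure D3:**
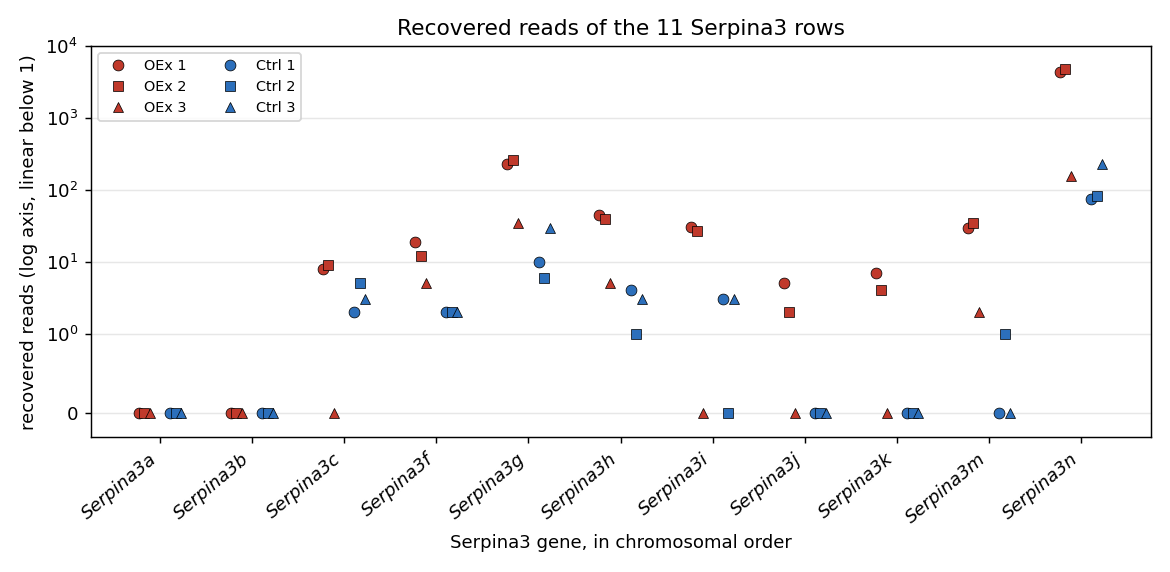
Recovered reads of the 11 Serpina3 rows are plotted by mouse in chromosomal order, on a log axis that is linear below 1 read. OEx replicates 1 and 2 (red circles and squares) are the highest points in every row with reads, and Serpina3n exceeds the other rows in all 6 mice.

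Serpina5, the protein C inhibitor, is an abundant serpin of male reproductive fluids and is encoded on chromosome 12 from 104101113 to 104106137. It was at 0 FPKM in all 3 OEx mice and at 0.813, 1.04 and 0.700 FPKM in Ctrl mice, which stood on 22, 29 and 23 reads. Against the floor of 3 reads over the OEx mice, it was at least 37.3-fold lower in OEx mice in FPKM. This bound holds for the FPKM scaling only, and library totals would make it smaller. Its mean was under 1 FPKM and it was outside the main comparison. With a filter of 0.1 FPKM, its log2 difference was -0.88 (limma FDR 4.85e-04). The fold criterion could not be met here. On the scale of log2(FPKM + 1), a fall from a Ctrl mean of 0.850 FPKM to 0 stays short of a log2 difference of 1. Serpina9, known from germinal centre B cells, was the reverse, with 10, 10 and 2 reads in OEx mice and 0 in each Ctrl mouse. It was at least 4.74-fold higher against the floor of 3 reads over the Ctrl mice. The exons of Serpina9 overlap those of Gm28577.

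In clade B, Serpinb1a and Serpinb8 were lower in OEx mice. Serpinb1a inhibits neutrophil elastase, cathepsin G and proteinase 3 inside cells, and its gene lies on chromosome 13 from 32842092 to 32851185. It was at 10.8, 9.97 and 17.4 FPKM in OEx mice and at 32.5, 32.9 and 29.9 FPKM in Ctrl mice. No OEx mouse reached the lowest Ctrl mouse, and the means differed by 2.50 times. OEx minus Ctrl was -1.29 ± 0.197 on the log2 scale (SE, limma FDR 0.00125), and the call held without each single mouse. With library totals it was -0.55, short of the fold criterion, as it was with library totals without the 20 most abundant genes, but it kept an FDR under 0.05 in all 15 alternatives. Elane, Prtn3 and Ctsg, which encode its target proteases, were all under the filter of 1 FPKM. Its close copies Serpinb1b and Serpinb1c had 1 read and 0 reads over all mice.

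Serpinb8, an intracellular inhibitor of the proprotein convertase furin, lies on chromosome 1 from 107590006 to 107610484. It was at 1.20, 1.06 and 1.14 FPKM in OEx mice and at 3.52, 4.35 and 2.47 FPKM in Ctrl mice. The OEx mice were within a narrow range below all Ctrl mice. OEx minus Ctrl was -1.04 ± 0.171 on the log2 scale (SE, limma FDR 0.00179), and the call held in 11 of 15 alternatives. Without Ctrl replicate 2 the call was lost (-0.89). It was also lost with library totals (-0.52), library totals without the 20 most abundant genes (-0.81) and the upper quartile (-0.85). Furin itself was at 7.24, 7.76 and 8.74 FPKM in OEx mice and at 25.6, 26.6 and 16.0 FPKM in Ctrl mice and was called lower (log2 difference -1.38, limma FDR 9.64e-04).

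Serpinb5, or maspin, is a serpin without inhibitory activity that marks basal and myoepithelial cells. It was at 2.53, 1.73 and 2.14 FPKM in OEx mice and at 2.99, 3.09 and 5.43 FPKM in Ctrl mice. In FPKM the groups did not overlap, and the difference of -0.60 ± 0.212 on the log2 scale (SE, limma FDR 0.0418) was under the fold criterion. Its FDR was under 0.05 in 3 of 15 alternatives. With library totals the difference was -0.028 (limma FDR 0.921). With library totals without the 20 most abundant genes it was -0.34 (limma FDR 0.197). The basal marker sum was lower in all 3 OEx mice as well, and Krt5 was at 1.32, 1.45 and 2.60 FPKM in OEx mice and at 58.2, 58.3 and 55.2 FPKM in Ctrl mice. The share of basal cells in the Serpinb5 difference was not tested.

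Serpinb6a, a widely expressed cytosolic inhibitor of cathepsin G, was at 34.8, 31.5 and 33.3 FPKM in OEx mice and at 16.5, 16.0 and 30.7 FPKM in Ctrl mice. The OEx mice were close to each other, and Ctrl replicate 3 lay just under them. OEx minus Ctrl was 0.69 ± 0.242 on the log2 scale (SE, limma FDR 0.0394), under the fold criterion, and the FDR was under 0.05 in 8 of 15 alternatives. The exons of Serpinb6a overlap those of Nqo2, Ripk1 and an antisense gene on the opposite strand, and whether the counting used strand is not given in the sources used here. Serpinb9, the granzyme B inhibitor that protects cytotoxic cells and their neighbours, was at 4.03, 4.16 and 2.89 FPKM in OEx mice and at 2.08, 1.66 and 3.81 FPKM in Ctrl mice. Groups overlapped and the difference of 0.45 ± 0.240 on the log2 scale did not pass the test (SE, limma FDR 0.137). Gzmb, which encodes granzyme B, was at 13.6, 15.1 and 5.05 FPKM in OEx mice and at 1.84, 1.88 and 1.60 FPKM in Ctrl mice and was called higher (log2 difference 2.02, limma FDR 0.00256).

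Serpine2 encodes protease nexin-1, a secreted inhibitor of thrombin and of urokinase, and was abundant in all 6 mice. Its gene lies on chromosome 1 from 79794197 to 79861180. It was at 53.0, 52.4 and 45.3 FPKM in OEx mice and at 23.5, 22.0 and 30.01 FPKM in Ctrl mice. The 3 OEx mice were all above the 3 Ctrl mice, and OEx replicate 3 followed the other OEx mice here. The means differed by 2.00 times, at 50.2 ± 4.28 FPKM (SD, n = 3) in OEx and 25.2 ± 4.25 FPKM (SD, n = 3) in Ctrl mice. The log2 difference was 0.98 ± 0.135 (SE, limma FDR 8.18e-04), so that Serpine2 missed the call by the fold criterion alone. It was called in 8 of 15 alternatives. Among them were those without OEx replicate 3 (1.05), without Ctrl replicate 3 (1.11) and with library totals (1.74). Its FDR was under 0.05 in all 15 alternatives. Serpine3, whose exons overlap Ints6, had 1 read in each OEx mouse and 0 in the Ctrl mice.

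Serpinf1 and Serpinh1 are made by stromal cells in many tissues, and both overlapped between the groups. Serpinf1, the non-inhibitory pigment epithelium-derived factor, was at 16.9, 17.4 and 3.17 FPKM in OEx mice and at 10.7, 8.77 and 15.6 FPKM in Ctrl mice. On the log2 scale, OEx minus Ctrl was -0.16 ± 0.585 (SE, limma FDR 0.825), and it was 0.55 without OEx replicate 3. Serpinh1, the collagen chaperone Hsp47 of the endoplasmic reticulum, was at 41.0, 39.1 and 7.69 FPKM in OEx mice and at 27.0, 27.2 and 53.0 FPKM in Ctrl mice. On the log2 scale, OEx minus Ctrl was -0.51 ± 0.637 (SE, limma FDR 0.500), and it was 0.23 without OEx replicate 3. For both genes OEx replicate 3 was the lowest of the 6 mice, as it was for the fibroblast markers. With both replicates 3 left out together, a choice made after seeing the data, the differences were 0.76 for Serpinf1 and 0.55 for Serpinh1 (limma FDR 0.00131 and 2.73e-04), under the fold criterion. The mice left in that fit, replicates 1 and 2, were far closer to counting noise than pairs with replicate 3 (chi-square per gene 3.67 in OEx and 2.93 in Ctrl). Its FDR therefore measures little spread between mice. Neither gene passed the test without OEx replicate 3 alone (limma FDR 0.0779 and 0.529) or without Ctrl replicate 3 alone (limma FDR 0.948 and 0.819). The part of stromal content in these values was not tested.

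**Figure D4:**
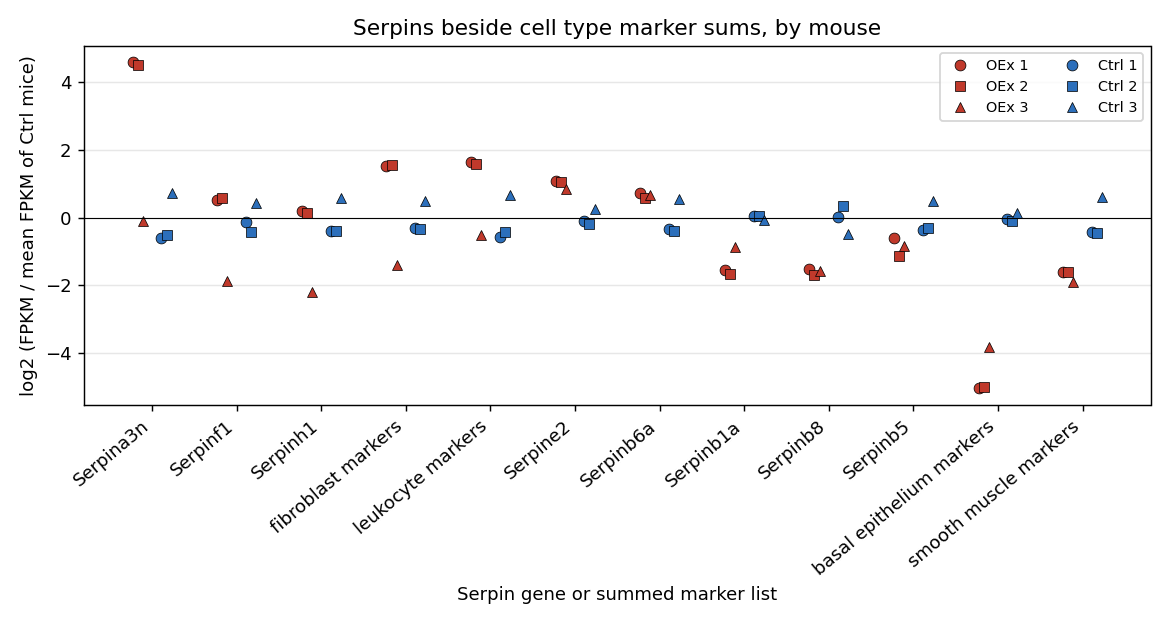
The y axis is the log2 ratio of each mouse to the mean of the 3 Ctrl mice, for serpins and for the summed FPKM of marker lists. Serpina3n, Serpinf1, Serpinh1 and the fibroblast and leukocyte sums have OEx replicate 3 (red triangles) below the other OEx mice, whereas for Serpine2, Serpinb6a, Serpinb8 and Serpinb5 the OEx mice lie together.

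The members of clades C, D and I were outside the main comparison, with means under 1 FPKM. Serpini1, or neuroserpin, an inhibitor of tissue plasminogen activator best known from neurons, was at 0.0963, 0.0660 and 0.0304 FPKM in OEx mice and at 1.27, 1.31 and 0.840 FPKM in Ctrl mice, on 4 to 14 and 93 to 124 reads. The groups were far apart, and the Ctrl mean was 17.8 times the OEx mean in FPKM, a ratio that library totals would make smaller. Recovered reads summed to 29 in OEx mice and 333 in Ctrl mice. Serpinc1 (antithrombin) had 11, 13 and 4 reads in OEx mice and 1, 0 and 2 in Ctrl mice, and its exons overlap those of Zbtb37 on the opposite strand. Serpind1 (heparin cofactor II) had 3, 7 and 1 reads in OEx mice and 0, 0 and 1 in Ctrl mice, and Serpinf2 (antiplasmin) had at most 6 reads in any mouse. In clade B, Serpinb9b had 18, 8 and 0 reads in OEx mice and 0 in all Ctrl mice. Serpinb6b had 20, 36 and 7 reads in OEx mice and 0, 4 and 29 in Ctrl mice, and Serpinb6c had 4, 6 and 4 against 1, 1 and 15, with Ctrl replicate 3 the highest Ctrl mouse for both. Serpinb11 had 4 reads in each OEx mouse and 0, 5 and 0 in Ctrl mice. Serpina10, Serpina11, Serpina1b, Serpina1f, Serpinb10, Serpinb12, Serpinb1b and Serpini2 had at most 4 reads in any mouse.

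**Figure D5:**
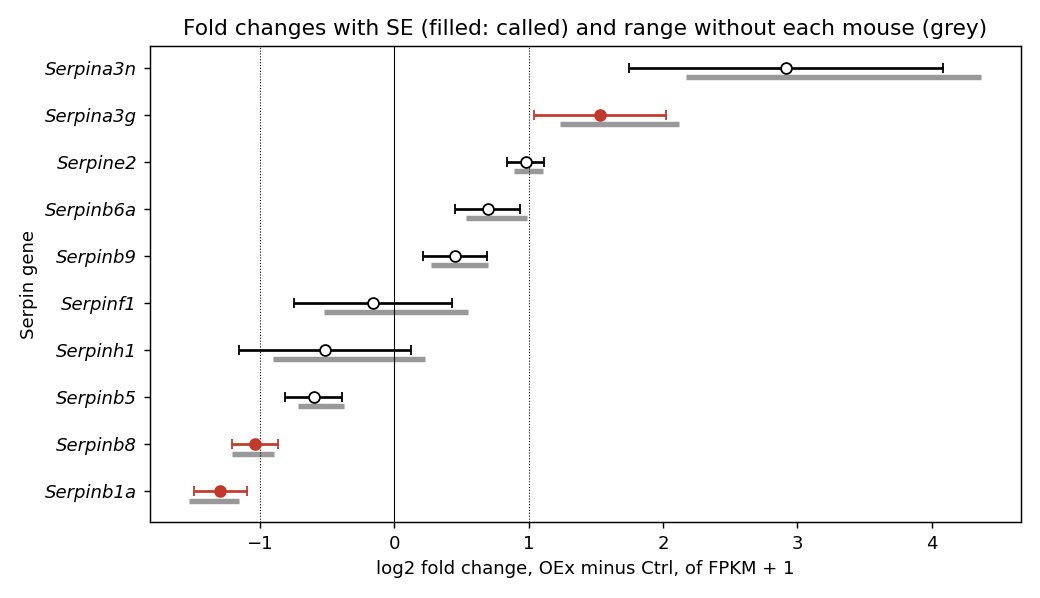
Points are log2 fold changes (OEx minus Ctrl, FPKM + 1) of 10 tested serpins with their standard errors, filled in red where called, and grey bars give the range over the 6 fits that each left out 1 mouse. Dotted lines mark a fold change of 2. Serpina3n spans 2.17 to 4.37 without single mice, and the bars of Serpinf1 and Serpinh1 cross 0.

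Proteases that serpins act on or beside, with receptors that clear their complexes, made up a list of 52 genes, of which 28 were tested. Of these, 3 were called higher and 5 lower in OEx mice, with a median log2 fold change of -0.090, beside 12.9% and 15.7% of all tested genes. The higher genes were Gzmb, Hpn (the membrane protease hepsin, log2 fold change 1.54) and Ctss (cathepsin S of antigen-presenting cells, 1.68), the last at 67.5, 62.5 and 15.7 FPKM in OEx mice with OEx replicate 3 near the highest Ctrl mouse at 15.0 FPKM. The lower genes were Tmprss2 (-1.91), an androgen-regulated membrane protease, S100a10 (-1.55), a plasminogen receptor subunit, Htra1 (-1.45), Furin (-1.38) and Prss8, or prostasin (-1.10). Hpn was at 13.8, 16.4 and 15.1 FPKM in OEx mice and at 4.13, 3.48 and 6.27 FPKM in Ctrl mice, and Tmprss2 at 24.7, 25.2 and 37.3 FPKM in OEx mice and 119, 121 and 92.1 FPKM in Ctrl mice. Of the 7 tested membrane and secreted epithelial serine proteases, 1 was called higher and 4 were called lower. With library totals, 8 genes of the list were called higher and 1 lower, beside 30.6% and 4.59% of all tested genes.

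The plasminogen activators that Serpine2 and Serpini1 inhibit were not called. Plat, tissue plasminogen activator, was at 3.20, 3.38 and 0.976 FPKM in OEx mice and at 0.589, 0.718 and 1.37 FPKM in Ctrl mice (log2 difference 0.83, limma FDR 0.066). Plau, urokinase, was at 2.31, 2.25 and 0.702 FPKM in OEx mice and at 2.50, 1.60 and 36.7 FPKM in Ctrl mice (log2 difference -1.41, limma FDR 0.244). The high value was that of Ctrl replicate 3, the mouse with the seminal vesicle transcripts. Plaur, the urokinase receptor, was at 0.508 to 1.303 FPKM in OEx mice and at 0.974 to 1.28 FPKM in Ctrl mice. Plg, which encodes plasminogen, was at most 0.0236 FPKM in any mouse, and Lrp1, the receptor that clears serpin complexes, was at 7.23, 8.05 and 3.08 FPKM in OEx mice and at 5.72, 6.11 and 9.52 FPKM in Ctrl mice (limma FDR 0.545).

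Beside Serpinh1, all 20 genes of a list of collagens and collagen-handling proteins were tested. Of these, 2 were called higher (Lox and Plod2) and 2 lower (Ppib and Plod1), with a median log2 fold change of 0.31, beside 12.9% and 15.7% of all tested genes and their median of -0.078. Lox, which cross-links collagen, was at 19.3, 17.6 and 1.31 FPKM in OEx mice and at 0.465, 0.626 and 1.40 FPKM in Ctrl mice, and Plod2, a lysyl hydroxylase, at 3.62, 3.45 and 2.63 FPKM in OEx mice and 0.786, 0.358 and 1.28 FPKM in Ctrl mice. For Lox, OEx replicate 3 lay below Ctrl replicate 3. Ppib, a prolyl isomerase of the endoplasmic reticulum, was at 34.5, 31.6 and 39.8 FPKM in OEx mice and at 91.0, 88.2 and 74.2 FPKM in Ctrl mice. Col1a1, a client of Hsp47, was at 75.4, 83.7 and 6.04 FPKM in OEx mice and at 11.4, 11.5 and 18.9 FPKM in Ctrl mice, with OEx replicate 3 again the lowest (log2 difference 1.29, limma FDR 0.257). In OEx replicates 1 and 2, Serpinh1 stood at 1.48 times the mean of Ctrl replicates 1 and 2, and Col1a1 at 6.94 times. Without OEx replicate 3, 7 genes of this list were called higher and 1 lower, beside 13.4% and 15.8% of all tested genes.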

How the data were processed

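The authors deposited FPKM values by gene symbol, 1 table per mouse, with totals that differ from the reads recovered per mouse. The submitters' processing notes name HISAT2 2.0.5, featureCounts 1.5.0-p3, StringTie 1.3.3b and CASAVA, and the genome build is not given in the sources used here. Exon lengths and positions came from GENCODE M21 (GRCm38). With these lengths, 96.9% to 97.5% of values under 1000 reads came out whole within 0.05 reads, and reads were recovered from them. No molecular identifiers are named, and floors therefore describe counting error alone. limma 3.58.1 in R 4.3.3, with eBayes and an intensity trend, was fitted to log2(FPKM + 1) for rows averaging 1 FPKM or more. On this scale the change of a low gene is understated. Steps were tested on simulated data that held no outlying mouse. They do not show how the fit behaves with the replicates 3 seen here. The labels do not say that mice are littermates, and same-numbered mice correlated at -0.23 in their deviations from the group means. Members, lists and tests were chosen with earlier results of these data known. All Serpin rows may be named, with values in all mice for called members, for tested members of clades C to I and for abundant members of clades A and B. Of the other lists, called genes are named, with Plau, Plat, Plaur, Plg, Lrp1 and Col1a1. Other low members and markers named were chosen after their values were seen. Alternatives changed the pseudocount, the filter, the scaling, the test and the mice. Plots used Python 3.11.15 and matplotlib 3.10.9. The values of 1 tested member are not reported here, although it stays in the counts.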

Additional observations from a re-analysis of the deposited data

How the results depend on the processing

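The count of serpins called higher (1) was 2 with a pseudocount of 0.1, 0 without a filter, 5 with library totals, 3 with library totals without the 20 most abundant genes, 2 with the upper quartile, 0 to 4 without single mice and 4 without replicate 3 of both groups, an alternative chosen after seeing the data. The count called lower (2) was 3 of 20 tested with a filter of 0.1 FPKM and 3 of 37 without a filter. Over all genes, these 2 settings gave 2070 lower calls of 20134 and 2038 of 28612. The count of serpins called lower was 0 with both library totals, 1 with the upper quartile and 1 to 2 without single mice. Over all genes, the 1653 higher calls of 12833 became 3923 and 2558 with the 2 library totals and 2341 with the upper quartile. They became 2307 with a pseudocount of 0.1 and 2486 of 12463 with limma-voom on recovered reads. Without a filter, 1793 of 28612 were called higher. Without single mice, 1614 to 1726 were called higher, and 1826 without both replicates 3. The 2021 lower calls became 589 and 1188 with the 2 library totals and 1326 with the upper quartile. Lower calls were 1987 to 2043 without single mice and 2117 without both replicates 3. In the protease and receptor list, 3 higher calls became 8 and 6 with the library totals, 5 with limma-voom, 2 to 5 without single mice and 7 without both replicates 3, and 5 lower calls became 1 with library totals. In the collagen list, 2 higher calls became 1 without a filter, 4 with library totals, 1 with limma-voom, 1 to 7 without single mice and 8 without both replicates 3, and 2 lower calls became 0 with both library totals and with the upper quartile, 1 to 3 without single mice and 1 without both replicates 3. Serpinf1 turned from -0.16 to 0.55 with library totals, 0.16 without the 20 genes, 0.098 with the upper quartile, 0.55 without OEx replicate 3, 0.054 without Ctrl replicate 3 and 0.76 without both. Serpinh1 turned from -0.51 to 0.24 with library totals, 0.23 without OEx replicate 3 and 0.55 without both. Without single mice they ranged from -0.52 to 0.55 and from -0.90 to 0.23. The cause was not tested. With the replicate block, 0 serpins, 1 collagen gene and 1611 of all 12833 tested genes were called higher. Serpina3g lost its call there (limma FDR 0.0703), as it did without a filter (0.0626) and with limma-voom (0.0697). Same-numbered mice correlated at -0.19 to -0.31, so the numbers were not taken to pair mice. Depth limits the 26 serpins under 1 FPKM.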
